A study of Arabidopsis thaliana with 12 samples.

Results

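A small set of ATH1 probe sets read a strong signal in axr2 seedlings of Arabidopsis thaliana and stayed near the floor of the array in wild type (WT) and msg2. The set was defined by signal: at most 6.5 on the log2 scale on all 8 WT and msg2 arrays and at least 7.5 on all 4 axr2 arrays. Of 22746 gene probe sets 18 met these limits (0.0791%). One of them, AT4G08780, was left out by the definition, as plastid-encoded genes and XTH, EXPA, SWEET, TET and UGT genes would have been, and 17 members remained. Among the members 5 had probe sets named _at and 12 had probe sets named _s_at (4) or _x_at (8), which read sequences shared by several transcripts. The signal values chose the members, so the contrast of axr2 with the other genotypes is given here as a description, with no test.

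The arrays came from 6 groups of 2 arrays each, which the submitters describe as biological replicates: axr2 with 24-epibrassinolide (24-eBL, labelled BR), axr2 mock, msg2 with 24-eBL, msg2 mock, WT with 24-eBL and WT mock. All seedlings were of the Columbia ecotype, were 4 days old, and had grown in darkness for 4 days after 8 h of light on medium with 2% sucrose. 24-eBL, a brassinosteroid steroid hormone, was given at 100 nM. As background, axr2 and msg2 carry dominant mutations that stabilise different members of the Aux/IAA family, repressors of auxin-responsive transcription that are normally degraded when auxin is present.

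Every array had been scaled to the same mean, with a trimmed mean signal between 500.05 and 500.06 before the logarithm. Within a group the arrays correlated at Pearson r of 0.968 to 0.979 across tested probe sets. The 40th percentile of an array, below which a value is called dim here, lay between 5.99 and 6.34. Of 42 markers listed for the dark-grown seedling, its elongating cells and other tissues and cell types, 3 had a probe set paired with that gene alone, too few for a check of the tissue label. They were the seed storage gene PAP85, the root-hair expansin EXPA7 and the expansin EXPA8, listed for hypocotyl and cell elongation. PAP85 read 5.98 and 4.97 in axr2 with 24-eBL and 6.86 and 6.98 in axr2 mock, against 3.05 to 5.32 in msg2 and WT, so its axr2 mock arrays stood above the dim level and above all msg2 and WT arrays. EXPA7 ran from 5.08 to 7.31 in axr2, against 4.68 to 7.82 in msg2 and WT. EXPA8 stood at 8.31 to 8.83 on the axr2 arrays and at 11.35 to 12.61 on the others, and the part of cell or tissue composition in the results was not tested. In whole seedlings, more cells with a transcript and more transcript per cell cannot be told apart.

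Of the 17 members, 16 had a probe set paired with exactly 1 gene, and 13 of these 16 genes are annotated as pseudogenes in the RefSeq table of assembly TAIR10.1. The other 3 are annotated as protein-coding. Of the 13 pseudogene members 11 have _s_at or _x_at probe sets, several of which may report the same transcripts. Among the 5 _at members 2 are annotated as pseudogenes and 3 as protein-coding. The pseudogene majority over the 16 genes also depends on the limits used. Stricter limits of 6.0 and 8.0 kept it, with 13 of 15 probe sets annotated as pseudogenes and 2 as protein-coding. Looser limits did not. With limits of 7.0 and 7.0 there were 60 probe sets, of which 14 were annotated as pseudogenes and 25 as protein-coding. Over the whole array 989 of 13436 matched probe sets (7.36%) belong to pseudogenes. As background, a pseudogene is a gene copy that has lost the capacity to make its protein, and in Arabidopsis annotation many loci of this class are remnants of transposable elements. The table used does not say which loci are of that kind. Such loci are known to be rich around the centromeres, where DNA methylation and histone marks normally keep them without transcripts. None of the 16 genes had a symbol other than its locus tag, and no function is given for them here.

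Probe sets named _at are not marked as reading shared sequences, though which transcripts they read was not checked. Among the members with such probe sets, AT1G58025 is protein-coding. It read 12.12 and 12.24 in axr2 with 24-eBL and 12.08 and 11.49 in axr2 mock, against 4.02 and 1.63 in msg2 with 24-eBL, 3.74 and 0.46 in msg2 mock, 2.16 and 2.24 in WT with 24-eBL and 1.51 and 1.05 in WT mock. All 8 msg2 and WT values were dim, and the lowest axr2 array lay 7.47 log2 units above the highest of the others, the widest gap of any member. With each dim value set to the dim level of its array, its signal was at least 67.1-fold higher in axr2 than in WT with 24-eBL and at least 53.8-fold higher in mock seedlings.

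AT4G05640, annotated as a pseudogene, read 9.90 and 9.46 in axr2 with 24-eBL and 9.16 and 8.91 in axr2 mock, against 2.87 and 0 in msg2 with 24-eBL, 3.39 and 4.21 in msg2 mock, 1.54 and 5.13 in WT with 24-eBL and 1.73 and 4.67 in WT mock. It was at least 11.9-fold higher in axr2 than in WT with 24-eBL and at least 8-fold higher in mock seedlings. The msg2 and WT values scattered between 0 and 5.13, all of them dim, so they carry no order among themselves.

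AT3G47320, the other pseudogene read by an _at probe set, stood at 8.99 and 8.81 in axr2 with 24-eBL and 8.46 and 8.80 in axr2 mock, against 1.55 and 0.66 in msg2 with 24-eBL, 1.2 and 4.50 in msg2 mock, 0.68 and 1.78 in WT with 24-eBL and 3.76 and 0 in WT mock. Its axr2 signal was at least 6.94-fold that of WT with 24-eBL and at least 6.04-fold that of WT mock. The axr2 arrays lay within 0.53 of each other.

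AT2G15560 and AT1G36240, both protein-coding, had the narrowest gaps among the _at members, at 2.75 and 2.58 log2 units between the lowest axr2 array and the highest other array. AT2G15560 read 9.62 and 9.16 in axr2 with 24-eBL and 9.18 and 8.88 in axr2 mock, against 5.02 and 6.14 in msg2 with 24-eBL, 5.82 and 5.60 in msg2 mock, 5.90 and 5.09 in WT with 24-eBL and 5.84 and 5.32 in WT mock. The value of 6.14 was the only one of the 136 msg2 and WT values of the members that exceeded the 40th percentile of its array. AT1G36240 read 8.04 and 8.19 in axr2 with 24-eBL and 8.08 and 8.61 in axr2 mock, against 5.06 and 4.60 in msg2 with 24-eBL, 5.05 and 4.71 in msg2 mock, 5.47 and 4.74 in WT with 24-eBL and 5.14 and 4.95 in WT mock. Its signal was at least 4.02-fold higher in axr2 than in WT with 24-eBL and at least 4.96-fold higher in mock seedlings.

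**Figure D1:**
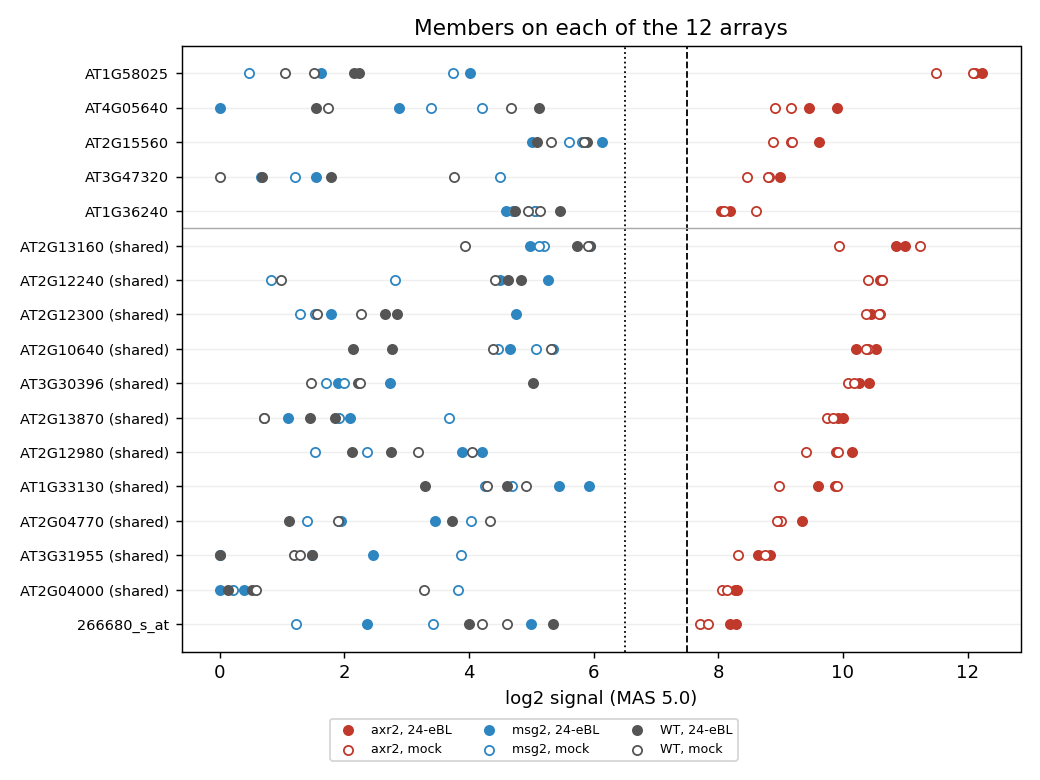
Log2 signal (horizontal axis) of the 17 members (rows) on each of the 12 arrays, coloured by genotype and filled where 24-eBL was given; rows marked shared have _s_at or _x_at probe sets, and the dotted and dashed lines mark the limits 6.5 and 7.5. The axr2 points lie between 7.70 and 12.24 and the msg2 and WT points between 0 and 6.14.

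The 12 members with _s_at or _x_at probe sets comprised 11 annotated pseudogenes and 1 probe set that is not paired with a single gene. Probe sets of these types made up 4.66% of all gene probe sets and 19.3% of those of pseudogenes. Because they read shared sequences, several of them may report the same transcripts, and the locus named is the one in the probe table rather than a proven source of the signal.

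AT2G12240 and AT2G12300 are near neighbours, with 5 protein-coding genes or pseudogenes between them in gene order, and both had narrow ranges in axr2. AT2G12240 read 10.60 and 10.62 in axr2 with 24-eBL and 10.41 and 10.63 in axr2 mock, against 4.49 and 5.26 in msg2 with 24-eBL, 2.81 and 0.82 in msg2 mock, 4.62 and 4.83 in WT with 24-eBL and 0.98 and 4.42 in WT mock. AT2G12300 read 10.59 and 10.45 in axr2 with 24-eBL and 10.36 and 10.58 in axr2 mock, against 4.75 and 1.79 in msg2 with 24-eBL, 1.52 and 1.28 in msg2 mock, 2.85 and 2.65 in WT with 24-eBL and 1.56 and 2.27 in WT mock. In mock seedlings the axr2 signal was at least 22.4-fold and at least 21.7-fold that of WT for these probe sets, with ranges of 0.23 over the 4 axr2 arrays in each.

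AT2G13160 varied most within axr2. It read 10.99 and 10.85 in axr2 with 24-eBL and 9.94 and 11.24 in axr2 mock, against 4.97 and 5.93 in msg2 with 24-eBL, 5.20 and 5.12 in msg2 mock, 5.95 and 5.73 in WT with 24-eBL and 5.91 and 3.93 in WT mock. The mock replicates differed by 1.30, yet the lower of them lay 3.99 above the highest msg2 or WT array. AT1G33130 also varied, over a range of 0.92, with 9.88 and 9.60 in axr2 with 24-eBL and 8.98 and 9.90 in axr2 mock, against 5.44 and 5.93 in msg2 with 24-eBL, 4.68 and 4.25 in msg2 mock, 4.61 and 3.30 in WT with 24-eBL and 4.91 and 4.29 in WT mock. In both probe sets axr2 mock replicate 1 was the lowest axr2 array.

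AT2G12980 was also lowest on axr2 mock replicate 1 among the axr2 arrays, reading 10.15 and 9.89 in axr2 with 24-eBL and 9.41 and 9.93 in axr2 mock, against 3.89 and 4.21 in msg2 with 24-eBL, 2.36 and 1.53 in msg2 mock, 2.11 and 2.75 in WT with 24-eBL and 3.18 and 4.05 in WT mock. Over all members axr2 mock replicate 1 was the lowest of the 4 axr2 arrays in 11 of 17, and axr2 with 24-eBL replicate 1 was the highest in 9.

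AT2G10640, AT3G30396 and AT2G13870 were steadier in axr2, with ranges of 0.32, 0.33 and 0.27. AT2G10640 read 10.52 and 10.21 in axr2 with 24-eBL and 10.40 and 10.37 in axr2 mock, against 4.65 and 5.35 in msg2 with 24-eBL, 5.07 and 4.47 in msg2 mock, 2.77 and 2.14 in WT with 24-eBL and 5.32 and 4.38 in WT mock. AT3G30396 read 10.42 and 10.27 in axr2 with 24-eBL and 10.09 and 10.17 in axr2 mock, against 2.74 and 1.90 in msg2 with 24-eBL, 2.00 and 1.70 in msg2 mock, 5.03 and 2.22 in WT with 24-eBL and 1.47 and 2.25 in WT mock. Their msg2 and WT values were dim on every array. AT2G13870 read 9.92 and 10.01 in axr2 with 24-eBL and 9.74 and 9.83 in axr2 mock, against 2.09 and 1.1 in msg2 with 24-eBL, 1.91 and 3.68 in msg2 mock, 1.44 and 1.85 in WT with 24-eBL and 0.71 and 0.71 in WT mock, and its gap of 6.06 was the widest among the shared probe sets.

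The remaining shared probe sets were those of AT2G04770, AT3G31955 and AT2G04000 and the one not paired with a single gene, called unpaired here. AT2G04770 ran from 8.95 to 9.34 in axr2, against 1.12 to 4.33 in msg2 and WT. AT3G31955 ran from 8.32 to 8.82 in axr2, against 0 to 3.87 in msg2 and WT. AT2G04000 ran from 8.07 to 8.30 in axr2, against 0 to 3.83 in msg2 and WT, and the unpaired probe set from 7.70 to 8.28 in axr2, against 1.23 to 5.34. The last was the member nearest to the upper limit, and AT2G15560 the one nearest to the lower limit. Across the 17 members the SD over the 4 axr2 arrays, treated and mock together, was 0.11 to 0.57, with a median of 0.22, while the gap between the lowest axr2 array and the highest other array was 2.36 to 7.47.

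The fold of axr2 over WT, with dim values raised, was at least 4.02 to at least 67.1 over the 17 members with 24-eBL (median 12.4) and at least 3.33 to at least 53.8 in mock seedlings (median 10.6). Against msg2 the corresponding bounds were 4.15 to 69.1 with 24-eBL and 3.09 to 50.1 in mock seedlings. These are lower bounds set by the floor of the array, so the order of the bounds is not an order of true changes.

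Just outside the limits lay AT1G43840, also annotated as a pseudogene, the only probe set that failed on a single array. It read 6.91 on axr2 mock replicate 1 and up to 8.85 on the other axr2 arrays, and between 0.04 and 4.29 in msg2 and WT. AT4G08780, which met the limits and was left out, read 8.38 and 7.98 in axr2 with 24-eBL and 8.08 and 8.10 in axr2 mock, against 0.87 to 6.22 in msg2 and WT.

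The same limits were applied with the other genotypes in the place of axr2. No probe set was at or above 7.5 on all 4 msg2 arrays and at or below 6.5 on all 8 axr2 and WT arrays, although 8166 were low on those 8. None met the limits for WT alone either, where 8267 were low on the 8 axr2 and msg2 arrays. For axr2 8649 probe sets were low on the 8 other arrays and 18 of them (0.208%) met the upper limit. Split by annotation, 13 of 969 low pseudogene probe sets (1.34%) and 4 of 4924 low protein-coding ones (0.0812%, AT4G08780 included) did so. These counts use the signals that chose the members and describe them only.

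Pseudogenes outside the set were described without a filter on signal. Of the 989 pseudogene probe sets 903 were dim on all 12 arrays. Every axr2 array lay above every msg2 and WT array in 42 of the 989 (4.25%), of which 13 were members, and below every one in 1, AT1G35612. Over all gene probe sets 6.2% were higher on every axr2 array and 5.43% lower. Without the members the pseudogene counts were 29 higher and 1 lower of 976.

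Among those 29, 11 had no axr2 array above the dim level, 12 had some and 6 had all 4. The 6 were AT1G43840, AT1G44060, AT2G05000, AT2G04460, AT4G22020 and AT1G20390. AT1G44060 ran from 6.98 to 7.19 in axr2, with a highest msg2 or WT value of 4.67, and AT2G05000 from 6.81 to 6.95 in axr2, with a highest msg2 or WT value of 5.22. AT1G20390 differed from the members in being read in all genotypes, with a mean of 8.92 in axr2 and 8.06 in msg2 and WT. The floor itself was somewhat higher in axr2: the 40th percentile was 6.14 to 6.34 on axr2 arrays and 5.99 to 6.19 on the others. Over the 8649 probe sets low in msg2 and WT the median difference, axr2 minus the others, was 0.28, and over the 956 low pseudogene probe sets that are not members it was 0.31. With arrays centred on their medians the total of 42 became 35, and with quantile normalisation 34, while all 17 members remained under both.

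Between msg2 and WT the pseudogenes divided evenly. All 4 msg2 arrays lay above all 4 WT arrays in 11 of 989 pseudogene probe sets and below them in 11 (1.11% each), where over all gene probe sets the shares were 5.32% and 4.79%. In axr2 against WT the counts were 65 higher and 9 lower of 989, where over all gene probe sets 14.3% were higher and 10.5% lower. In axr2 against msg2 they were 71 higher and 11 lower, where over all gene probe sets 9.11% were higher and 7.39% lower. The comparisons share arrays, and the differences between them were not tested.

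**Figure D2:**
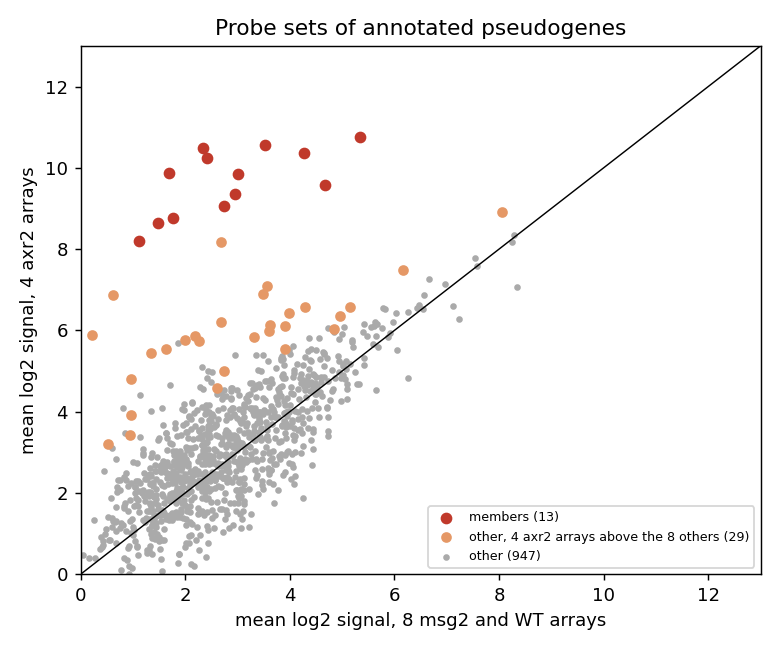
Mean log2 signal of each of the 989 pseudogene probe sets over the 4 axr2 arrays (vertical axis) against the mean over the 8 msg2 and WT arrays (horizontal axis), with the line of equal signal. The 13 members stand apart at the top, 29 further probe sets have all 4 axr2 arrays above the 8 others, and the other 947 lie mainly in the dim range of both axes.

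A list of 12 entries for genes kept silent by DNA methylation or small RNAs was also drawn up, and 1 of them, QQS, had a probe set paired with it alone. QQS, an orphan gene whose expression is known to vary with its DNA methylation, read 11.41 and 11.62 in axr2 with 24-eBL and 11.00 and 11.76 in axr2 mock, against 5.90 and 4.81 in msg2 with 24-eBL, 4.64 and 4.73 in msg2 mock, 9.53 and 9.58 in WT with 24-eBL and 8.98 and 9.46 in WT mock. Its axr2 arrays were the highest, as for the members, but WT was well above the floor and msg2 was dim, so its pattern was not that of the members.

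The locus tags place 9 of the 16 paired members on chromosome 2, 3 on chromosome 1, 3 on chromosome 3 and 1 on chromosome 4. Chromosome 2 thus held 56.2% of the members, where it held 30.1% of the 989 pseudogene probe sets and 16.4% of the 13436 matched probe sets on the array, and the difference was not tested. Of the 9 on chromosome 2 only AT2G15560 has an _at probe set. The other _at members are AT1G58025 and AT1G36240 on chromosome 1, AT3G47320 on chromosome 3 and AT4G05640 on chromosome 4. For shared probe sets the named locus is not a proven source of the signal, and several may report the same transcripts. This limits both the chromosome counts and the flanking genes below. Gene order here counts protein-coding genes and pseudogenes only. For 20 genes flanking each member in gene order, 10 on either side, the median share of pseudogenes was 62.5% and the range 15% to 90%. The median was 5% over the 13213 genes with a paired probe set and a place in that order, and 55% over the 989 pseudogenes with a probe set. Among the 13 pseudogene members it was 70% (quartiles 50% and 80%), against quartiles of 20% and 80% over all pseudogenes. The median and lower quartile were thus higher in these members than over all pseudogenes, and the difference was not tested. Of the protein-coding members, AT1G36240 had 60% pseudogenes around it, AT2G15560 30% and AT1G58025 15%.

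**Figure D3:**
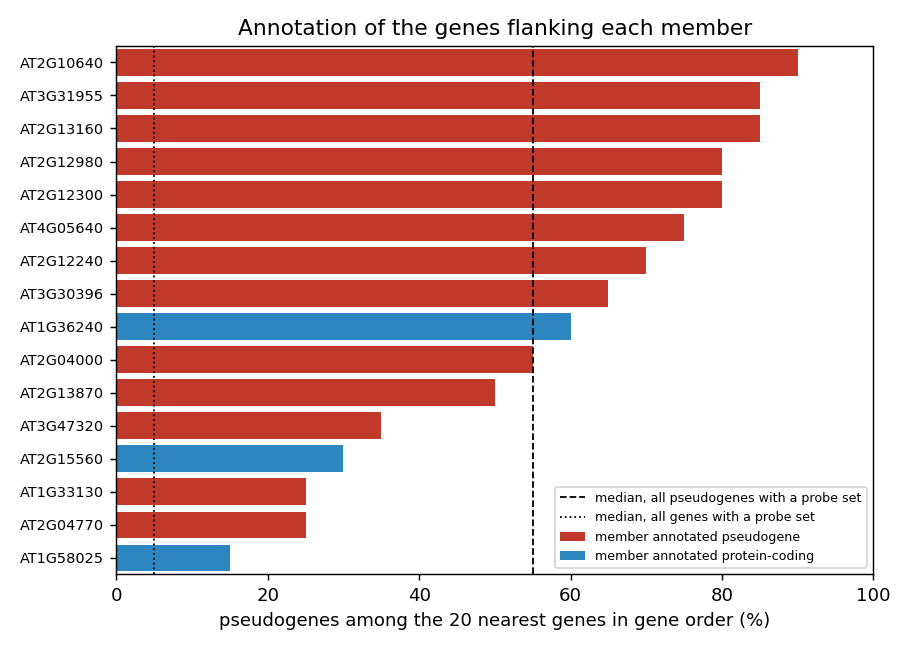
Share of pseudogenes (percent) among the 20 genes nearest in gene order to each of the 16 members paired with a gene, coloured by the member's own annotation, with dashed and dotted lines at the medians of all pseudogenes (55%) and of all genes (5%) with a probe set. Shares run from 15% at AT1G58025 to 90% at AT2G10640.

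Of 105 probe sets of flanking genes that are not members, all 4 axr2 arrays lay above all others in 3 (2.86%) and below all others in 2 (1.9%), where over all gene probe sets the shares were 6.2% and 5.43%. Over the pseudogene probe sets that are not members the shares were 2.97% and 0.102%. The flanking genes include both pseudogenes and protein-coding genes, and the difference from either background was not tested. The 3 higher flanking ones were AT3G47310 and AT3G47330, pseudogenes next to AT3G47320 on either side, and AT1G36190, a pseudogene 6 places from AT1G36240, all with shared probe sets. AT3G47310 ran from 6.07 to 6.62 in axr2, against 2.52 to 5.72 in msg2 and WT, and AT3G47330 from 5.49 to 6.57 in axr2, against 0.57 to 5.46. AT1G36190 ran from 6.0 to 6.71 in axr2, against 1.67 to 5.94 in msg2 and WT. All 3 lay near the dim level of the arrays even in axr2.

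The difference between 24-eBL and mock within axr2 was not part of the definition, although both treated and mock axr2 arrays had to reach 7.5, and it was tested in a limma fit of all 12 arrays. Of 15025 tested probe sets 362 were called at an adjusted p under 0.05 (2.41%), 104 higher and 258 lower, and 0 of the 17 members were among them. No member had an unadjusted p under 0.05 either, and the lowest adjusted p was 0.704, for AT2G15560. All 17 had passed the filter on low signal through their axr2 arrays. The mean was higher in treated axr2 than in mock in 15 members and lower in 2, with a median change of 0.21 and a range of −0.23 to 0.64. Over all tested probe sets the median change was −0.03 and 46.2% were higher. The members may not be separate readings, since several of the 12 shared probe sets may report the same transcripts. In 11 of 17 members axr2 mock replicate 1 was the lowest axr2 array. Without that array the median change of the members was 0.11.

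By member the change with 24-eBL in axr2 was 0.64 ± 1.12 for AT4G05640, 0.39 ± 0.86 for AT1G58025 and 0.36 ± 0.37 for AT2G15560 (SE of the limma fit, n = 2 arrays a group). It was 0.28 ± 1.51 for AT3G47320 and −0.23 ± 0.41 for AT1G36240. The SEs of the members were 0.37 to 2.11, against a median of 0.22 over all tested probe sets, because the fit pools the spread of the 12 arrays and these probe sets scattered widely in the dim msg2 and WT arrays. The smallest ratio of change to SE among the called probe sets was 3.84, and at that ratio a member would have needed a change of 1.42 to 8.10 to be called, so this fit could hardly call changes of the size seen. In a fit of the 4 axr2 arrays alone the members' SEs were 0.18 to 0.30, and again 0 of 17 were called, where 238 of 13966 tested probe sets were (1.7%). An unadjusted p under 0.05 was found for 1 of 17, where 13.8% of all those tested had one. That member was AT4G05640, at 0.64 with a 95% interval of 0.19 to 1.09 (limma adjusted p = 0.17, n = 2 arrays a group).

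The arrays of treated and mock axr2 did not overlap in 7 of the 17 members (41.2%), with the treated arrays higher in each, where over all tested probe sets they did not overlap in 44.1% (18.9% higher and 25.2% lower). In AT4G05640 the treated arrays at 9.90 and 9.46 lay above the mock arrays at 9.16 and 8.91. In the fit of axr2 arrays alone the interval of AT1G58025 was −0.04 to 0.82 and that of AT2G12240 −0.29 to 0.48. Both intervals leave room for changes of either sign, and the missing calls do not show that 24-eBL had no effect. Of the 989 pseudogene probe sets 60 passed the filter on low signal, members included, and none of these was called in the fit of all 12 arrays. Their median change was 0.15, and at the 2.41% called over all tested probe sets so small a number would hold few calls.

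**Figure D4:**
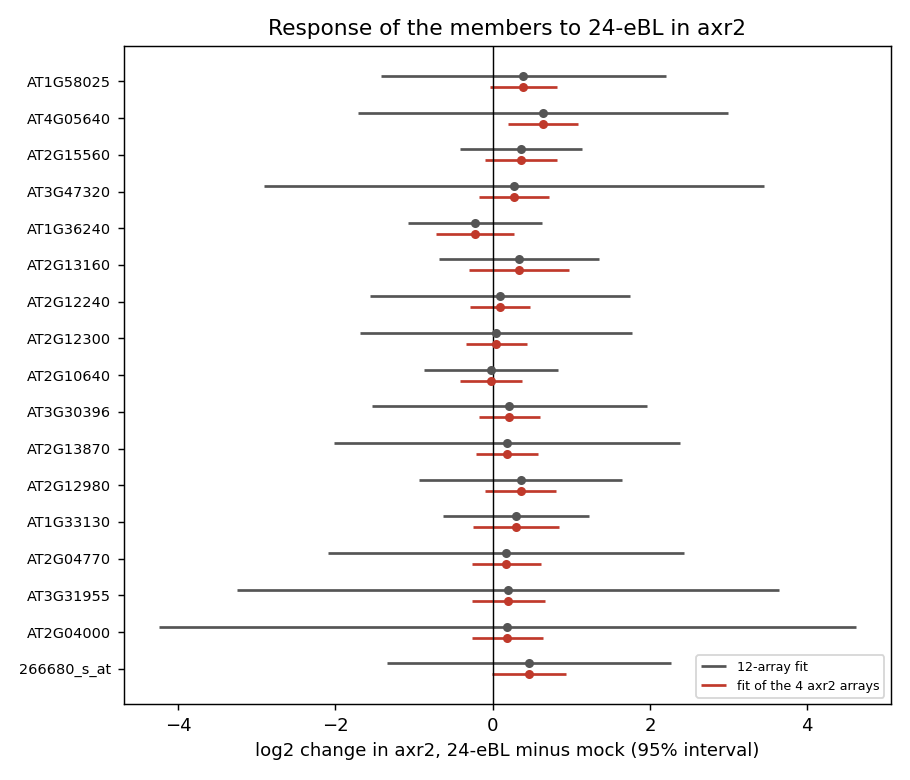
Log2 change between 24-eBL and mock in axr2 (horizontal axis) for each of the 17 members, with 95% intervals from the fit of all 12 arrays (grey) and from the 4 axr2 arrays alone (red). The points lie between −0.23 and 0.64, and in the red intervals only that of AT4G05640 leaves out 0.

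Among probe sets outside the set that are paired with 1 gene, the profile over the 6 group means most like the mean of the members was that of AT4G21140 (Pearson r = 0.998), followed by AT4G09040 (r = 0.996) and AT2G14130 (r = 0.996). AT4G21140 ran from 7.66 to 8.03 in axr2, against 6.36 to 7.25 in msg2 and WT. AT4G09040 ran from 6.33 to 6.63 in axr2, against 5.26 to 5.99. AT2G14130, read by a shared probe set, ran from 4.16 to 5.97 in axr2, all of them dim, against 0.97 to 4.20 in msg2 and WT. The likeness is one of shape over 6 values, and the steps of these genes were smaller than those of the members. The mean of the members was 9.71 in axr2 with 24-eBL and 9.48 in axr2 mock, against 3.33 in msg2 with 24-eBL, 3.09 in msg2 mock, 3.11 in WT with 24-eBL and 3.11 in WT mock.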

How the data were processed

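The values are log2 signals of 12 Affymetrix ATH1 arrays as deposited, computed by the submitters with MAS 5.0 (per the submitters' processing notes), and with GeneSpring 11.0 named in the series' design text. The arrays were used without further scaling. No detection calls were used, so values not above the 40th percentile of an array were called dim, and folds against them were computed after setting them to that percentile. The number of arrays limits the precision.

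Probe sets were paired with genes by the platform table (13513 with exactly 1 gene, 503 with several, 8730 with none there), and 13436 were matched to the RefSeq table of TAIR10.1 by gene ID. No genome build is given in the sources used here, so the RefSeq table gave names, annotation and gene order only, and sequences were not used here.

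The members, lists and tests were chosen with earlier results of these data known. A limma 3.58.1 model (R 4.3.3) with 1 mean per group, moderated variances following intensity and Benjamini-Hochberg adjustment was fitted to the 15025 probe sets above their array's 40th percentile on at least 2 arrays. The response in axr2 was simulated in a single run of 15025 probe sets that held changes of both sizes, and 3 unchanged probe sets were called. In that run 88 of 100 changes of 2 log2 units and 53 of 100 of 1 unit were recovered. This recovery is over probe sets at large and does not apply to the members, whose SEs were larger (median 0.83, against 0.22 over all tested). Values on every array are given for the 10 members with the highest axr2 mean, and every _at member is named. Replicate numbers were not a block, since deviations of same-numbered arrays correlated at −0.08 to 0.07. Alternatives were other scalings, offsets, filters, fits, limits and leaving out each array.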

Additional observations from a re-analysis of the deposited data

How the results depend on the processing

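The 17 members were the same under quantile normalisation and with arrays centred on their medians. Leaving out single arrays gave 17 to 18, the addition being AT1G43840 without axr2 mock replicate 1. Every array had to meet its limit, so leaving one out could only keep or add members, and stricter limits could only remove them. Limits of 6.0 and 8.0 left 15, all of them members, of which 13 were pseudogenes and 2 protein-coding. Limits of 7.0 and 7.0 gave 60, of which 14 were pseudogenes and 25 protein-coding. The count of pseudogene probe sets with every axr2 array higher was 34 to 35 under the other scalings and 43 to 55 with single arrays left out, and the count lower was 2 with quantile normalisation, 3 with centred arrays and 1 to 6 with single arrays left out; these alternatives were chosen after the data had been seen. With single arrays left out both counts could only stay the same or rise. In the response of axr2 to 24-eBL, 0 members were called under every alternative run. The count of 362 calls was 238 when only the axr2 arrays were fitted, 165 with no intensity trend, 664 at an adjusted p under 0.10, 216 with a 2-fold minimum, and 192 to 401 with single arrays left out (222 without axr2 mock replicate 1 and 192 without axr2 with 24-eBL replicate 2). With the replicate block it was 335, and the numbers do not pair the arrays. The median change of the members ran from 0.11 to 0.33 with single arrays left out and was 0.34 with centred arrays, which shift all tested probe sets too. AT1G36240 changed sign without axr2 mock replicate 2 (0.032, range −0.49 to 0.03). The cause of these differences was not tested. Dim values in msg2 and WT limit every fold to a lower bound.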
